A study of Mus musculus with 12 samples.

Results

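Bone marrow derived macrophages (BMDMs) that had been incubated with medium conditioned by NB9464 neuroblastoma cells (NB9464 TCM) were compared with BMDMs that received no conditioned medium (NS). The comparison used 2 libraries of each group, 4 of the 12 in the series, and covered 16281 of 54232 genes, those that reached 10 counts in 2 or more of the 12 libraries. In all 4 libraries the BMDMs came from C57BL/6 WT mice, had been cultured for 5 days, were harvested 24 h later and had no R788 (fostamatinib, an inhibitor of the kinase Syk). NB9464 is a mouse neuroblastoma line with MYCN amplification, and by the methods of the study its medium was DMEM without serum, conditioned for 48 h. The medium of the NS cells was not stated, so factors from the tumor cells cannot be told apart from a change of base medium or serum. Nothing states that the libraries came from separate mice or cultures. The p-values rest on the spread between libraries of the same group, estimated over all 12, and that spread may be technical.

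Macrophages grown from bone marrow are kept alive by the growth factor M-CSF, and they change their gene expression widely in response to what their receptors detect. Receptors for microbial and damage signals act through NF-kB and give cytokines, chemokines and acute-phase proteins, and they usually also give a wave of interferon and interferon-stimulated genes. Interleukin-4 gives a different state, read by Mrc1 and Arg1, and tumor-associated macrophages often carry features of both. The question put by the comparison was how secreted products of neuroblastoma cells alter macrophages, and which of these programs went up or down.

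Total counts of the 4 libraries were between 50108042 and 56364160, and between 18222 and 18343 genes had a count. Values below are normalized counts (the deposited counts divided by the DESeq2 size factor of the library), with the 2 NS libraries first. Changes are log2 fold changes of NB9464 TCM against NS ± SE from DESeq2, and a gene was called when its Benjamini-Hochberg adjusted p in DESeq2 was under 0.05. Only called genes are said to have risen or fallen. The label of the cells was checked with 17 macrophage genes. All 17 were detected in the 4 libraries, with summed counts of 1759193 and 1807362 in NS and 2145578 and 2276778 in NB9464 TCM. In bulk RNA, fewer cells of a type and less RNA per cell cannot be told apart.

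NB9464 TCM changed about as many genes upward as downward, but the rises were larger. Of the 16281 genes, 2805 were called higher (17.2%) and 2747 lower (16.9%), and 43.7% of the called genes changed by less than 1.5-fold. The shares of 17.2% and 16.9% are the background for each gene list below. At 4-fold or more there were 512 rises and 300 falls, and at 16-fold or more 230 rises and 54 falls. The 973 genes that rose at least 2-fold took 4.23% of all normalized counts in NS and 15.5% in NB9464 TCM. The median log2 fold change of all genes was 0.02. Among called genes, 109 had no count in either NS library and 33 none in either NB9464 TCM library. Of protein-coding genes 5259 of 13284 were called, and of lincRNA and antisense genes 137 of 1165.

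**Figure D1:**
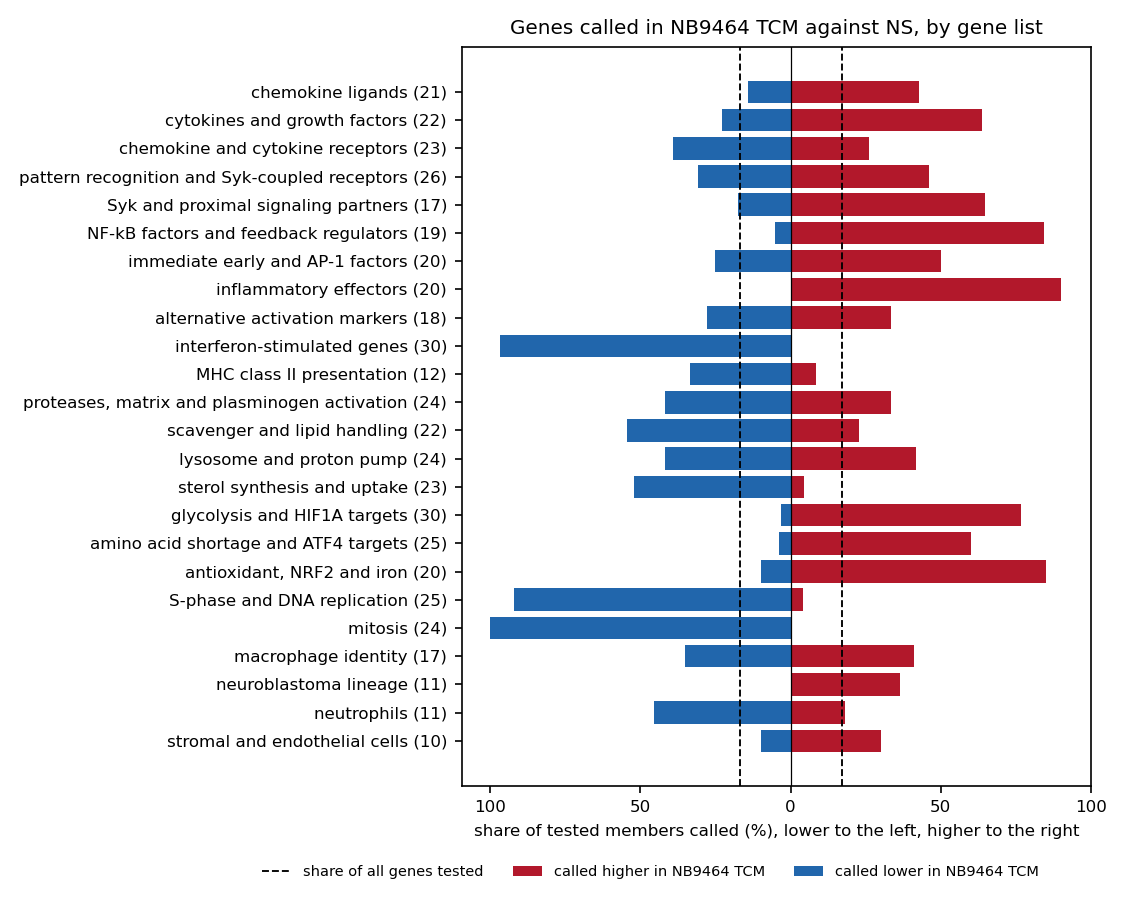
Share of the tested members of each gene list that were called higher (red, to the right) or lower (blue, to the left) in NB9464 TCM against NS, in percent, with the number of tested members in brackets. Dashed lines mark the shares of all genes tested, 17.2% higher and 16.9% lower. Inflammatory effectors, NF-kB regulators and NRF2 genes lie far to the right, and interferon-stimulated, S-phase and mitosis genes far to the left.

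Of the 8 largest relative rises 4 were of secreted signals, Edn1, Il12a, Csf3 and Il1a. Edn1, which encodes the vasoconstrictor endothelin-1, had no counts in NS and 564 and 520.2 in NB9464 TCM, at least 192-fold higher against a floor of 3 counts per library. The gene lies on chromosome 13, 42301476 to 42307990 (GRCm38). Il12a, the p35 subunit of interleukin-12, went from no counts to 387 and 388, at least 137-fold. Csf3, the neutrophil growth factor G-CSF, had 1.88 and 5.69 in NS and 4558 and 4965 in NB9464 TCM (log2 fold change 10.30 ± 0.52, adjusted p = 3.60e-85). The rule that picked the 8 largest rises and the 8 largest falls admitted only genes whose groups do not overlap. Il1a, an alarm cytokine, had 1.88 and 11.4 in NS and 1816 and 1629 in NB9464 TCM (8.03 ± 0.40). Cd38, an enzyme that consumes NAD, reached 16716 and 15616 from 78.9 and 24.7 (8.29 ± 0.42). The other genes among the 8 largest rises were the lincRNA Gm1720 (at least 121-fold), Nhs (at least 93.2-fold) and U90926, with 0 and 5.69 in NS and 3031 and 2856 in NB9464 TCM (10.02 ± 0.59). With 1 of the 4 libraries left out at a time, the log2 fold change was 9.71 to 11.30 for Csf3, 7.24 to 9.84 for Il1a, 7.68 to 9.35 for Cd38 and 9.01 to 14.05 for U90926, all genes with few or unequal counts in NS.

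The largest relative falls had less in common. Nptx1, a secreted pentraxin best known from synapses, had 499.6 and 508 in NS and 3.83 and 0 in NB9464 TCM (-8.06 ± 0.88, adjusted p = 1.03e-18, and -11.53 to -7.04 with 1 library left out). Lama3, a chain of the basement membrane protein laminin, had 384 and 362 in NS and 13.4 and 14.9 in NB9464 TCM (-4.72 ± 0.67). Ctnnd2, a catenin of cell junctions, had 657 and 529 in NS and 28.7 and 23.2 in NB9464 TCM (-4.52 ± 0.43). Kitl, the ligand of the stem cell receptor Kit, had 478 and 558 in NS and 26.8 and 35.3 in NB9464 TCM (-4.06 ± 0.47). In all of these the lowest NS library stood above the highest NB9464 TCM library, which the rule that picked them required. The rest of the 8 were Apol9b (-4.17 ± 0.71), the interferon-stimulated gene Ifi44 (-4.03 ± 0.51), Pcp4l1 (-3.91 ± 0.37) and Ccr3, the eotaxin receptor (-3.90 ± 0.47, and -4.67 to -3.40 with 1 library left out).

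In absolute terms the response was led by an acute-phase protein and by ferritin. Saa3, a serum amyloid A made by macrophages, had 17338 and 20855 in NS and 1202501 and 1403746 in NB9464 TCM (6.09 ± 0.15), and Fth1, the heavy chain of the iron store ferritin, had 590012 and 622344 in NS and 1514249 and 1621216 in NB9464 TCM (1.37 ± 0.07). On the TPM scale, which divides counts by the merged exon length of each gene, the level of Saa3 was 467 in NS and 26687 in NB9464 TCM (group means), and that of Fth1 was 44624 in NS and 96720.4 in NB9464 TCM. Marco, a scavenger receptor for bacteria and particles, had 56469 and 57478 in NS and 540012 and 581237 in NB9464 TCM (3.30 ± 0.05). Lyz2 (lysozyme) and Prdx1 (peroxiredoxin) completed the 5 largest gains in count, with changes of 0.29 ± 0.06 and 1.27 ± 0.04. The largest losses in count were of genes that mature macrophages hold at high levels. Gpnmb had 481708 and 480336 in NS and 267187 and 269996 in NB9464 TCM (-0.84 ± 0.03), the lysosomal protease Ctsb changed by -0.60 ± 0.04, and Spp1 (osteopontin) had 135345 and 137111 in NS and 35422 and 35347 in NB9464 TCM (-1.94 ± 0.05). Lgals3 (galectin-3) and the filament gene Vim changed by -1.54 ± 0.08 and -0.92 ± 0.05.

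Of 21 tested chemokine ligands 9 were called higher and 3 lower (background 17.2% and 16.9% of all genes), with a median log2 fold change of 0.32. The neutrophil attractants Cxcl5, Cxcl3 and Cxcl1 led. Cxcl5 had 1.88 and 5.69 in NS and 631 and 742 in NB9464 TCM (7.51 ± 0.54, and 6.91 to 8.51 with 1 library left out). Cxcl3 had 56.4 and 56.9 in NS and 5435 and 5588 in NB9464 TCM (6.60 ± 0.40), and Cxcl1 had 115 and 108 in NS and 3202 and 3559 in NB9464 TCM (4.92 ± 0.13). Cxcl2, Ccl3, Ccl4, Ccl5, Ccl2 and Ccl7 rose too, by 4.22, 3.62, 2.03, 2.99, 1.24 and 1.20 on the log2 scale (chosen after their values were seen). Cxcl10, a T cell attractant that interferon induces, fell from 664 and 709 to 291 and 306 (-1.20 ± 0.28, adjusted p = 9.51e-05). The median rests in part on low genes, and leaving out members that averaged under 50 counts moved it to 1.22. Without NS replicate 1 it was 0.16 and without NB9464 TCM replicate 4 it was 0.01.

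The promoter windows of Cxcl3 and Cxcl1 are shown because both genes rose together and both windows hold a kB site, the element that NF-kB binds. They were taken from RefSeq (GRCm38.p6), run 5′ to 3′ on the strand of the gene from 250 bases before to 50 bases after its start, and carry the kB matches in capitals. Cxcl3 lies at chr5:90785851-90786150 and Cxcl1 at chr5:90890995-90891294, both on the plus strand, with the first match 73 and 71 bases before the start.
Cxcl3: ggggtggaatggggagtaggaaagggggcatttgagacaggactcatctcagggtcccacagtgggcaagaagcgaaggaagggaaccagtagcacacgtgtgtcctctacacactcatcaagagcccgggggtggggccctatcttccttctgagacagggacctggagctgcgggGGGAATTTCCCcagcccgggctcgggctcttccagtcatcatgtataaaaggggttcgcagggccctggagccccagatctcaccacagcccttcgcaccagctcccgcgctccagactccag
Cxcl1: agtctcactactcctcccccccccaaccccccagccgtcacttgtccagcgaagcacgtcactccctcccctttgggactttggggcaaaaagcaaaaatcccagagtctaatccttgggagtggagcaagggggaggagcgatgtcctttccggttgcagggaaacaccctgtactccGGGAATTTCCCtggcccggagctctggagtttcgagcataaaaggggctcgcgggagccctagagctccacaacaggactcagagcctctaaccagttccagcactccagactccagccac
Both windows hold the same run of letters, GGGAATTTCCC, at 1 place. A kB site (searched on both strands) stood in the windows of 5 of 13 chemokine ligands with a window (38.5%), 9 of 16 NF-kB regulators (56.2%) and 3 of 16 inflammatory effectors (18.8%), against 12.1% of the 11262 tested genes with a window. Counted with overlaps, Cxcl3 and Cxcl1 hold 2 matches each and Cxcl10, which fell, holds 3.

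Of 22 tested cytokines and growth factors, 14 were called higher and 5 lower, with a median log2 fold change of 1.01. Il6 had 0 and 3.79 in NS and 259 and 327 in NB9464 TCM (7.28 ± 0.76), and Il12b, the p40 subunit shared by interleukins 12 and 23, had 5.64 and 0 in NS and 593 and 634 in NB9464 TCM (7.76 ± 0.62). With 1 library left out these changes were 6.27 to 10.73 for Il6 and 6.76 to 11.78 for Il12b. Tnf was already expressed in NS and had 2781 and 3037 in NS and 8835 and 8836 in NB9464 TCM (1.60 ± 0.07, adjusted p = 1.11e-101). Il10, which restrains inflammation, had 179 and 169 in NS and 672 and 786 in NB9464 TCM (2.07 ± 0.19, adjusted p = 1.01e-26). Il10 and the interleukin-12 subunits, which are often read as markers of opposite states, rose in the same libraries. Vegfa, an angiogenic factor, had 1784 and 1796 in NS and 1811 and 1715 in NB9464 TCM and was not called (-0.02 ± 0.12, adjusted p = 0.926). Igf1, a growth factor that resident macrophages supply, had 21518 and 21674 in NS and 5446 and 5007 in NB9464 TCM (-2.05 ± 0.06). Pdgfa, which acts on connective tissue cells, and Il15, which supports NK cells, changed by -1.68 ± 0.22 and -1.57 ± 0.19.

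Inflammatory effectors had the highest share of rises of the lists with at least 10 tested members. Of 20 inflammatory effectors 18 were called higher and none lower, with a median of 3.78, and Cd40 and Cd86, which help to activate T cells, were the exceptions (0.18 ± 0.13 and -0.13 ± 0.22). Lcn2, which withholds iron from bacteria, had 1164 and 1231 in NS and 144069 and 145696 in NB9464 TCM (6.92 ± 0.07). Hp (haptoglobin) had 516 and 510.1 in NS and 36646 and 38799 in NB9464 TCM (6.20 ± 0.08). Nos2, the inducible nitric oxide synthase, had 67.6 and 74.9 in NS and 1824 and 1771 in NB9464 TCM (4.66 ± 0.18, adjusted p = 1.94e-142). The replicates differed by little against these gaps. Acod1, which makes itaconate, and Ptgs2, the inducible cyclooxygenase, rose by 3.69 and 3.87, and Cd274, which encodes PD-L1, had 1657 and 1627 in NS and 7117 and 6964 in NB9464 TCM (2.10 ± 0.07). These 3 were chosen after their values were seen.

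**Figure D2:**
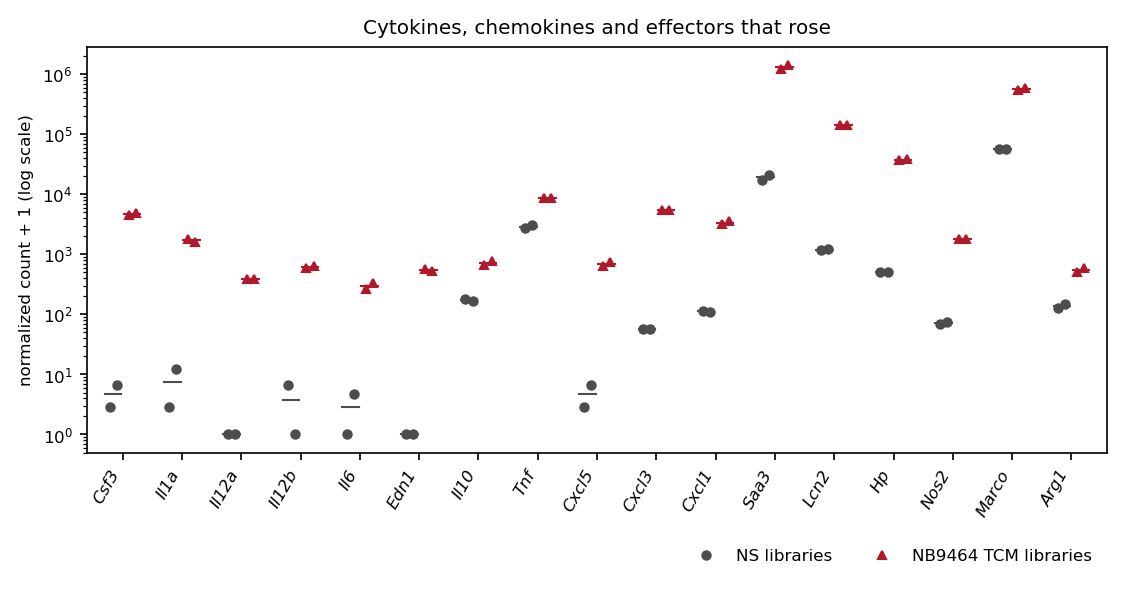
Normalized count plus 1 on a log axis for 17 genes that rose, in each NS library (gray circles) and each NB9464 TCM library (red triangles), with a short line at the group mean (n = 2). The groups do not overlap for any gene shown, as for 99.9% of called genes and 64.5% of all genes tested. Saa3 reached 1202501 and 1403746 in NB9464 TCM.

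Of 19 tested NF-kB subunits and regulators 16 were called higher and 1 lower (median 0.86). The 3 largest rises were Socs3, Nfkbiz and Irak3. Socs3, which dampens cytokine signaling, had 487 and 491 in NS and 18569 and 18442 in NB9464 TCM (5.24 ± 0.18). Nfkbiz, a nuclear co-factor of NF-kB, had 1289 and 1146 in NS and 9813 and 10098 in NB9464 TCM (3.03 ± 0.07), and Irak3, which restrains Toll-like receptor signaling, had 3161 and 3055 in NS and 16842 and 15899 in NB9464 TCM (2.40 ± 0.06). The subunit genes Nfkb1, Nfkb2, Rel and Relb rose by between 0.30 and 0.67, and Rela was not called (-0.05 ± 0.07). These 5 were chosen after their values were seen. The one gene that fell was Tnip3 (-0.26 ± 0.06). Immediate early and AP-1 genes were mixed after 24 h, with 10 of 20 called higher and 5 lower. Batf had 287 and 242 in NS and 2302 and 2645 in NB9464 TCM (3.22 ± 0.12), and Dusp2 and Maff rose by 2.18 ± 0.27 and 2.03 ± 0.17, whereas Fos had 3438 and 3779 in NS and 1998 and 2214 in NB9464 TCM (-0.78 ± 0.10). Egr2 (-1.36 ± 0.56) was called in DESeq2 (adjusted p = 0.0461) but not in edgeR (adjusted p = 0.0608), nor with any 1 of the 4 libraries left out.

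Syk, the kinase that R788 inhibits, had 15428 and 14546 in NS and 34238 and 33632 in NB9464 TCM (1.18 ± 0.05, adjusted p = 5.26e-116). Of 17 tested genes of Syk and its proximal partners 11 rose and 3 fell (median 0.39). The adaptor Lcp2 (SLP-76) had 6478 and 6242 in NS and 16164 and 16169 in NB9464 TCM (1.35 ± 0.06). Those that fell were the ubiquitin ligase Cblb (-1.03 ± 0.12) and the phosphatase Inpp5d (-0.26 ± 0.06), which both restrain signaling, and Plcg2, a phospholipase downstream of Syk. The change of Plcg2 was small (-0.14 ± 0.06, adjusted p = 0.0361) and was not called in edgeR (adjusted p = 0.0504) or without 3 of the 4 libraries in turn. Receptors that feed into Syk or NF-kB were divided, with 12 of 26 called higher and 8 lower. The C-type lectins Clec4e (Mincle) and Clec4n (Dectin-2), which signal through Syk, had 9756 and 9905 in NS and 79396 and 76138 in NB9464 TCM (2.98 ± 0.06) and 2613 and 2672 in NS and 17145 and 17393 in NB9464 TCM (2.71 ± 0.07). Trem3 and the endotoxin receptor Cd14 rose by 2.69 ± 0.14 and 0.89 ± 0.06. Trem2, a lipid receptor of tissue macrophages, had 30906 and 34055 in NS and 9719 and 10732 in NB9464 TCM (-1.67 ± 0.07). Tlr5 and Tlr3, receptors for flagellin and double-stranded RNA, changed by -3.43 ± 0.46 (and -4.04 to -3.00 with 1 library left out) and -1.01 ± 0.23.

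Several receptors that guide monocytes and macrophages fell, and receptors for interleukin-1, TNF and G-CSF rose. Of 23 tested chemokine and cytokine receptors 6 were called higher and 9 lower (background 17.2% and 16.9% of all genes). Ccr2, which answers to Ccl2, had 6189 and 5835 in NS and 641 and 627 in NB9464 TCM (-3.25 ± 0.11), although Ccl2 itself rose. Cx3cr1, the receptor for fractalkine, had 3349 and 3099 in NS and 565 and 549.9 in NB9464 TCM (-2.53 ± 0.14). Il1rl1, the interleukin-33 receptor, had 225 and 176 in NS and 19.1 and 9.29 in NB9464 TCM (-3.82 ± 0.84, and -4.43 to -3.39 with 1 library left out). Cxcr4 was lower as well, with a change of -3.03 ± 0.24 (chosen after its values were seen). Il1r1, the signaling interleukin-1 receptor, had 22.5 and 24.7 in NS and 289 and 242 in NB9464 TCM (3.49 ± 0.36). Tnfrsf1b and Csf3r, the receptors for TNF and G-CSF, rose by 1.98 ± 0.04 and 1.61 ± 0.10. Csf1r, the M-CSF receptor on which macrophages depend, had 96379 and 94494 in NS and 91337 and 90093 in NB9464 TCM and was not called (-0.07 ± 0.04, adjusted p = 0.134).

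The markers of alternative activation did not move together. Of 18 tested, 6 were called higher and 5 lower, with a median of -1.03. That median was -0.66 without NS replicate 1, -0.66 without NB9464 TCM replicate 3 and -0.40 over members that averaged at least 50 counts. Mrc1, the mannose receptor, had 28261 and 26069 in NS and 2812 and 2517 in NB9464 TCM (-3.35 ± 0.08), a 10.2-fold fall. Arg1, arginase, had 125 and 148 in NS and 517 and 582 in NB9464 TCM (2.01 ± 0.22, adjusted p = 4.97e-18), a 4.03-fold rise. Clec10a and Pparg, both raised by interleukin-4 in macrophages, changed by -2.62 ± 0.29 and -2.41 ± 0.32, whereas the interleukin-4 receptor chain Il4ra and the chitinase-like Chil3 rose by 0.84 ± 0.06 and 0.74 ± 0.14. Retnla, another gene of this state, had at most 13 counts in any of the 4 libraries and was not tested, and Ccl17 had 0. Pdcd1lg2, which encodes PD-L2, had 0 and 0.948 in NS and 13.4 and 26.9 in NB9464 TCM and was called higher (adjusted p = 0.0106, chosen after its values were seen).

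Genes for matrix and its breakdown were also divided, with 8 of 24 higher and 10 lower (background 17.2% and 16.9% of all genes). The membrane protease Mmp14 had 2596 and 2615 in NS and 28147 and 29966 in NB9464 TCM (3.48 ± 0.05), and the matrix protein Thbs1 had 4139.9 and 4068 in NS and 25967 and 23965 in NB9464 TCM (2.60 ± 0.06). Mmp9, a gelatinase, rose by 2.13 ± 0.08. Plau, the urokinase that activates plasminogen, moved the other way, with 11750.1 and 10982 in NS and 1745 and 1755 in NB9464 TCM (-2.70 ± 0.10).

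**Figure D3:**
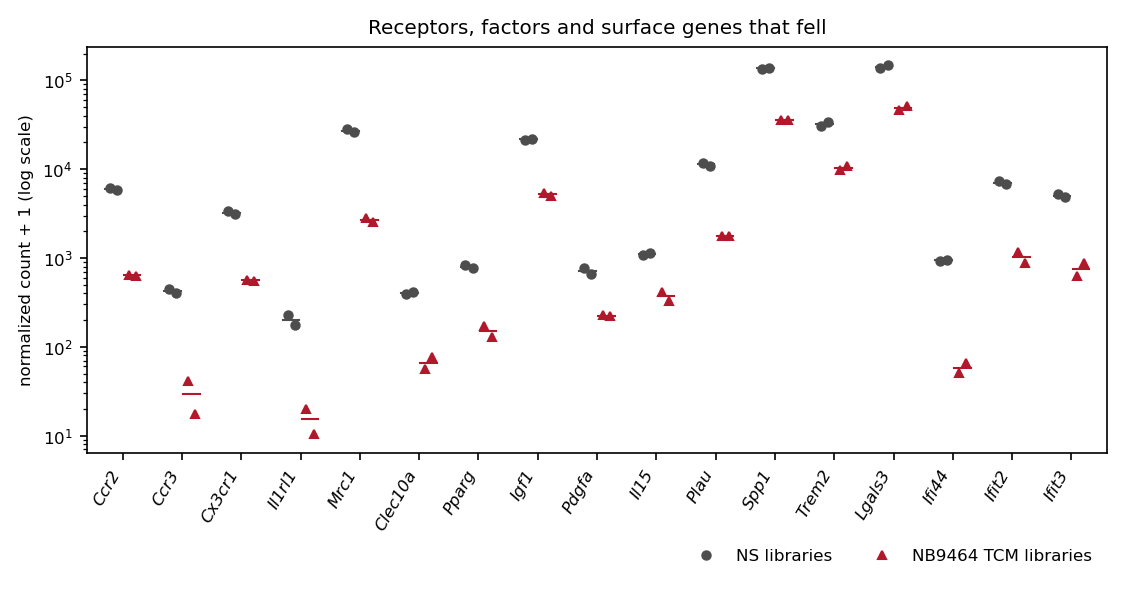
Normalized count plus 1 on a log axis for 17 genes that fell, among them receptors, growth factors and interferon-stimulated genes. Gray circles are NS libraries and red triangles NB9464 TCM libraries, with a short line at the group mean (n = 2). The groups do not overlap for any gene shown, as for 99.9% of called genes and 64.5% of all genes tested. Ccr2 was at 641 and 627 in NB9464 TCM.

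Interferon-stimulated genes moved in the opposite direction to the inflammatory effectors. Of 30 tested interferon-stimulated genes none was called higher and 29 were called lower (16.9% of all genes were), with a median of -0.89 and a range from -4.03 to -0.25. Ifi44 had 929.8 and 952 in NS and 49.7 and 65.0 in NB9464 TCM (-4.03 ± 0.51). Ifit2 and Ifit3, antiviral genes of the IFIT family, had 7291 and 6753 in NS and 1177 and 869 in NB9464 TCM (-2.78 ± 0.14) and 5209.6 and 4887 in NS and 627 and 868 in NB9464 TCM (-2.76 ± 0.17). Every NS library stood above every NB9464 TCM library for these genes. Groups did not overlap for 99.9% of all called genes and 64.5% of all genes tested. Irf7, which amplifies the type I response, had 25056 and 25319 in NS and 7585 and 7576 in NB9464 TCM (-1.73 ± 0.06, chosen after its values were seen). Ifnb1, the gene of interferon beta, had 0 counts in all 4 libraries. Gbp5 was the member not called (-0.57 ± 0.97).

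The windows of Ifit3 (chr19:34583279-34583578, plus strand) and Ifi44 (chr3:151749861-151750160, minus strand) are shown because both genes fell and both hold the core of the interferon response element, TTCNNTTTC on either strand, in capitals (RefSeq, GRCm38.p6).
Ifit3: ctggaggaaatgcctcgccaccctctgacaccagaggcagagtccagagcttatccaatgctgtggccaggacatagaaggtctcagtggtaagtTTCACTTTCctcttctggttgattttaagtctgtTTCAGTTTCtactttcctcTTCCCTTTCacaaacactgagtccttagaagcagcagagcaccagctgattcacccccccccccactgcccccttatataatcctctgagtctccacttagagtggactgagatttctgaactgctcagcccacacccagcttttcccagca
Ifi44: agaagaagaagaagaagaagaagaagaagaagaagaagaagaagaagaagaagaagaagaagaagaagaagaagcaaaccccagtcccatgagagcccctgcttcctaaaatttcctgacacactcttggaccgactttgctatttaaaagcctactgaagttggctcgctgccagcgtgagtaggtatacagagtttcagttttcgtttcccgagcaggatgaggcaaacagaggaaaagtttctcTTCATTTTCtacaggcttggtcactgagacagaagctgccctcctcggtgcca
Ifit3 holds 3 matches, the first 155 bases before the start, and Ifi44 holds 1. The core stood in the windows of 15 of 22 interferon-stimulated genes with a window (68.2%) and in 9.03% of the 11262 tested genes with one.

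Genes for antigen presentation to CD4 T cells did not follow a common direction. Of 12 tested MHC class II genes 1 was called higher and 4 lower (background 17.2% and 16.9% of all genes). H2-Ab1 had 764 and 903 in NS and 1348 and 1715 in NB9464 TCM (0.88 ± 0.14), whereas H2-Aa, whose product pairs with that of H2-Ab1, had 579 and 619 in NS and 319 and 310.3 in NB9464 TCM (-0.93 ± 0.18). H2-Eb1 and the processing protease Ctss changed by -1.47 ± 0.31 and -1.01 ± 0.05.

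Cell division genes fell without exception among the mitotic members. All 24 tested mitosis genes were called lower, with a median of -1.96 and a range from -2.71 to -1.48. Mki67, the marker of cycling cells, had 22477 and 21047 in NS and 6279 and 5925 in NB9464 TCM (-1.83 ± 0.09). Cenpf, a kinetochore protein, had 3088 and 2833 in NS and 494 and 412 in NB9464 TCM (-2.71 ± 0.16), the mitotic kinase Plk1 had 4427 and 4548 in NS and 769 and 751 in NB9464 TCM (-2.56 ± 0.11), and Nusap1, a spindle protein, changed by -2.50 ± 0.12. The mitosis genes together summed to 168443 and 166633 in NS and 44049 and 42674 in NB9464 TCM. DNA replication genes fell less, with 23 of 25 called lower, 1 higher and a median of -0.88. Tyms and Tk1, which supply thymidine nucleotides, had 4951 and 5148 in NS and 1735 and 1685 in NB9464 TCM (-1.56 ± 0.10) and 7750.1 and 7883 in NS and 2657 and 2677 in NB9464 TCM (-1.55 ± 0.08), and the polymerase subunit Pola1 changed by -1.32 ± 0.14. The transcription factor E2f1 was the member called higher (0.28 ± 0.08, adjusted p = 0.00231). It was no longer called without NS replicate 1 (adjusted p = 0.0574) or NB9464 TCM replicate 4 (adjusted p = 0.143). The share of cells in division was not measured.

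The window of Mki67 (chr7:135716330-135716629, minus strand) is shown as that of a gene of the mitotic list with the cell cycle element TTTGAA, in capitals, on either strand (RefSeq, GRCm38.p6).
Mki67: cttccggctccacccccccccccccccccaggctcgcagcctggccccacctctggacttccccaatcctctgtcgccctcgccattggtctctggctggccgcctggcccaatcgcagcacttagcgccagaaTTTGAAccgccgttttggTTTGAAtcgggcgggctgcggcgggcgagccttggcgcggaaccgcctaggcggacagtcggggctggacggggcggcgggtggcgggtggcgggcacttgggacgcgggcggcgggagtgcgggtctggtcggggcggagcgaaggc
Its 2 matches begin with the one 116 bases before the start. TTTGAA stood in the windows of 15 of 20 mitosis genes with a window (75%), against 14.6% of tested genes with one.

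Most genes of the glycolysis and antioxidant lists rose. Of 30 tested genes of glycolysis and HIF1A targets 23 were called higher and 1 lower (median 0.58). Pfkfb3, which speeds glycolysis, had 2218 and 2038 in NS and 14134 and 13311 in NB9464 TCM (2.69 ± 0.06), and Hk2 and Ndrg1 rose by 1.24 ± 0.12 and 1.54 ± 0.09. Hif1a itself had 5877 and 5620.0 in NS and 10614 and 10199.9 in NB9464 TCM (0.86 ± 0.07). Slc2a3, a glucose transporter, was the gene that fell (-0.67 ± 0.18). The motif ACGTG of the hypoxia element stood in the windows of 18 of 26 of these genes with a window (69.2%) and in 28.3% of tested genes with one. Of 20 antioxidant, NRF2 and iron genes 17 rose and 2 fell (median 0.82). Gsr, which regenerates glutathione, had 8451 and 7667 in NS and 27226 and 30805 in NB9464 TCM (1.85 ± 0.07), and Hmox1, which breaks down heme, had 37941 and 38388 in NS and 118457 and 123495 in NB9464 TCM (1.66 ± 0.04). Slc40a1, ferroportin, the exporter of iron, had 4343 and 4366 in NS and 1149 and 1022 in NB9464 TCM (-2.00 ± 0.09), and Tfrc, the transferrin receptor for iron uptake, changed by -0.46 ± 0.08. The gene for the iron store, Fth1, had risen.

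Amino acid genes rose by smaller steps. Of 25 tested genes of amino acid shortage and ATF4, 15 were called higher and 1 lower (median 0.42). Slc7a11, which imports cystine for glutathione, had 1336 and 1422 in NS and 33048 and 28305 in NB9464 TCM (4.48 ± 0.09) and stood apart from the rest. Phgdh, the entry to serine synthesis, had 648 and 713 in NS and 1779 and 1837 in NB9464 TCM (1.41 ± 0.16). Asns, asparagine synthetase, had 3041 and 2885 in NS and 4398 and 4256 in NB9464 TCM (0.55 ± 0.08, adjusted p = 1.09e-09). Atf4 had 13269 and 14447 in NS and 15982 and 16621 in NB9464 TCM (0.23 ± 0.06, adjusted p = 5.77e-04, and 0.0575 without NS replicate 1). TGATGNAA, the element of ATF4, stood in the windows of 8 of 21 of these genes with a window (38.1%) and in 2.98% of tested genes with one.

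Lipid genes leaned downward. Of 23 tested sterol genes 12 were called lower and 1 higher (median -0.38). Idi1 and Msmo1, enzymes of the pathway, had 1489.5 and 1287 in NS and 708 and 587 in NB9464 TCM (-1.10 ± 0.18) and 6138 and 6330.2 in NS and 3801 and 3718 in NB9464 TCM (-0.73 ± 0.07). The sterol element TCACNCCAC was found in 1 of 16 windows (6.25%, against 1.47% of tested genes). Of 22 scavenger and lipid handling genes 5 rose and 12 fell (background 17.2% and 16.9% of all genes). Olr1, a receptor for oxidized LDL, had 2.82 and 11.4 in NS and 77.5 and 84.5 in NB9464 TCM (3.51 ± 0.77, and 2.83 to 4.84 with 1 library left out), and Apoe, an apolipoprotein that macrophages secrete, had 5447 and 6055 in NS and 1933 and 2319.6 in NB9464 TCM (-1.44 ± 0.10). Of 24 lysosomal genes 10 rose and 10 fell, with a median of -0.08. Gaa, an acid glucosidase, rose by 1.04 ± 0.06, and the protease Ctsl had 139701 and 146459.7 in NS and 68729 and 69603 in NB9464 TCM (-1.05 ± 0.04).

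**Figure D4:**
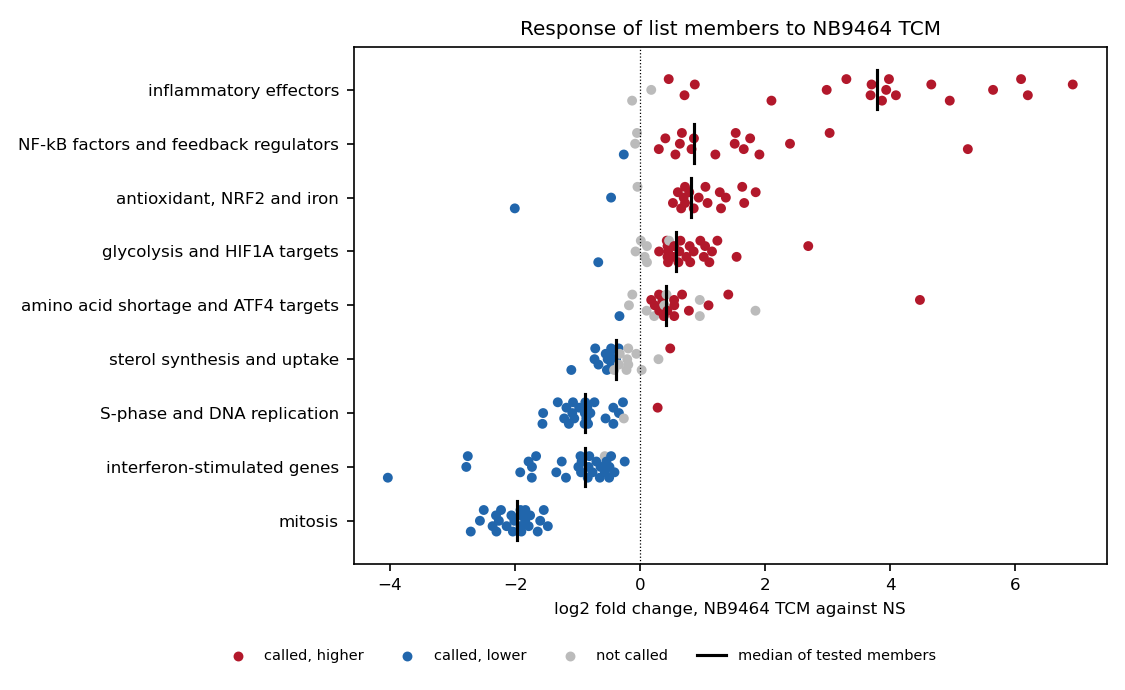
Log2 fold change of NB9464 TCM against NS for each tested member of 9 gene lists. Points are genes, red where called higher, blue where called lower and gray where not called, and the black line is the median of the list. The effector genes center at 3.78 and the mitosis genes at -1.96.

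The macrophage genes themselves were redistributed, with 7 of 17 called higher and 6 lower. Adgre1 (F4/80) had 75339 and 72143 in NS and 222578 and 220715 in NB9464 TCM (1.59 ± 0.04), and Itgam (CD11b) rose by 0.91 ± 0.06. Lgmn, a lysosomal protease, had 50866 and 51853 in NS and 24407 and 26046 in NB9464 TCM (-1.03 ± 0.05).

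Genes of other cell types were measured too, and some of them were called, with a background of 17.2% higher and 16.9% lower. The shares called higher among tested neutrophil genes (18.2%) and dendritic cell genes (16.7%) lay near that background. Of the 18 genes of the neuroblastoma lineage 8 had 0 counts in all 4 libraries, among them Phox2a, Th, Dbh and Ddc, which define sympathetic neuroblasts. Summed counts of the list were 385 and 361 in NS and 415 and 472 in NB9464 TCM. Of the 11 tested, 4 were called higher and none lower, and edgeR called 3 of the 4. Mycn had 0 and 0 in NS and 6.70 and 23.2 in NB9464 TCM, at least 5.28-fold higher, and Gata3 had 10.3 and 9.48 in NS and 67.0 and 59.5 in NB9464 TCM (2.67 ± 0.94, adjusted p = 0.015, and not called with any 1 of the 4 libraries left out). Hand2, a transcription factor of the same lineage, had 0 and 0 in NS and 17.2 and 3.72 in NB9464 TCM. In NBT3L TCM, Mycn had 9.90 and 13.0 and Hand2 6.19 and 7.57. Mycn and Hand2 were named after their values were seen. Of 11 tested neutrophil genes 2 rose and 5 fell, and the sum of the list was 17757 and 17122 in NS and 47170.2 and 45561 in NB9464 TCM. S100a8 had 1161 and 1369 in NS and 6072 and 6013 in NB9464 TCM (2.26 ± 0.29) and Mmp8 had 10573 and 9448 in NS and 37716 and 36239 in NB9464 TCM (1.89 ± 0.06), while Mpo went from 53.5 and 87.2 to 0 in both libraries, at least 24.9-fold lower. Mpo was no longer called without either NS library (adjusted p = 0.158 and 0.199). Ly6g, which defines neutrophils, had at most 4 counts. Of the T and NK cell genes 3 of 12 were tested and 1 fell, Cd4 (54.5 and 77.8 in NS and 11.5 and 9.29 in NB9464 TCM), and the list summed to between 84.5 and 135. The 8 B cell genes summed to between 688 and 737, with 4 tested and none called, and the 8 mast cell and basophil genes to between 22.0 and 43.6, with 2 tested and none called. Of 6 tested dendritic cell genes 1 was called, Xcr1 (15.0 and 9.48 in NS and 60.3 and 32.5 in NB9464 TCM), which edgeR did not call (adjusted p = 0.0586), and which DESeq2 did not call with only the 4 libraries compared or without NS replicate 1, NS replicate 2 or NB9464 TCM replicate 3. Of 10 stromal and endothelial genes 3 rose and 1 fell. Pecam1, an adhesion molecule, had 41.3 and 37.9 in NS and 545 and 579.7 in NB9464 TCM (3.83 ± 0.31) and Kdr, a VEGF receptor, had 1348 and 1405 in NS and 109 and 104 in NB9464 TCM (-3.69 ± 0.28). The part of other cells in the results above was not tested.

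Medium of NBT3L cells, a neuroblastoma line without the amplification, was given to the BMDMs of another 2 libraries, also without R788. How that medium was conditioned was not stated. Its comparison with NS shares the NS libraries, so the difference was tested by setting NB9464 TCM directly against NBT3L TCM, which called 9.4% of all genes. Of the 1860 genes that NB9464 TCM changed by at least 2-fold, 357 were among them. These genes were picked on the same NB9464 TCM libraries, so the share of all genes is not a like comparison. Among those that had risen, 85 were higher and 136 lower in NB9464 TCM than in NBT3L TCM, and among those that had fallen, 30 were higher and 106 lower. Amino acid genes were mostly higher with the NB9464 medium: 16 of 25 were higher in NB9464 TCM and 1 lower (median difference 0.88 on the log2 scale, against -0.0014 for all genes). Asns had 1025 and 954 in NBT3L TCM, beside 4398 and 4256 in NB9464 TCM (difference 2.13 ± 0.09, adjusted p = 2.10e-120). Phgdh had 248 and 360.3 in NBT3L TCM (difference 2.57 ± 0.17, adjusted p = 1.62e-50). Both genes stood above NS in NB9464 TCM and below NS in NBT3L TCM.

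Interferon-stimulated genes differed in the other direction, with 25 of 30 lower in NB9464 TCM than in NBT3L TCM and none higher (median difference -0.67). Ifit3 had 2275 and 2329 in NBT3L TCM (difference -1.62 ± 0.18, adjusted p = 2.94e-18). Chemokine ligands were lower in NB9464 TCM for 12 of 21 and higher for none, and glycolysis and HIF1A targets lower for 21 of 30 and higher for 2. Cxcl3 had 17024 and 17601 in NBT3L TCM (difference -1.65 ± 0.38), Il6 had 710.4 and 671 (-1.24 ± 0.25) and Il1b had 9275 and 9335, beside 965 and 1123 in NB9464 TCM (-3.16 ± 0.10, chosen after its values were seen). Of the mitosis genes, 1 of 24 differed.

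**Figure D5:**
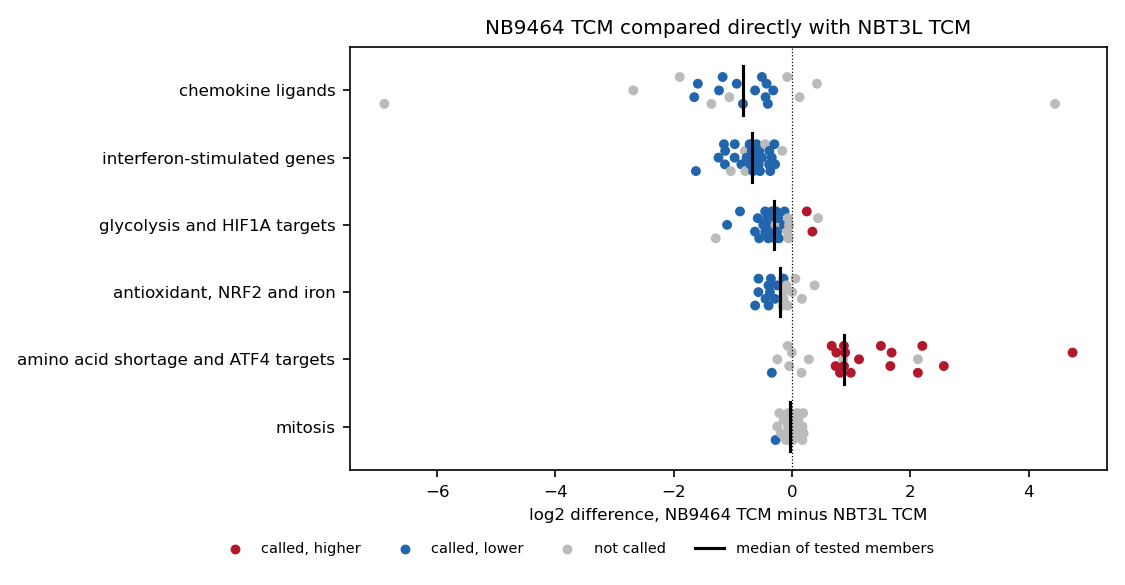
Log2 difference between NB9464 TCM and NBT3L TCM for each tested member of 6 gene lists. Points are genes, red where called higher in NB9464 TCM, blue where called lower and gray where not called, and the black line is the median. Amino acid genes center at 0.88, interferon-stimulated genes at -0.67 and mitosis genes at -0.03.

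NB9464 TCM was also compared with no conditioned medium in the presence of 500 nM R788, in 4 libraries that the comparison above does not use. Replicate 8 of the R788 group stood apart from the other libraries, with 16149 genes detected against 17275 or more, and counts without it are given beside each. Of the 1860 genes changed at least 2-fold without R788, 1756 had the same sign with R788 (1755 without replicate 8) and 1476 were called in the same direction (1396). In the opposite direction 13 were called (7). Of all 16281 genes, 71.1% had the same sign in both comparisons (71.2%), and 40.4% were called with R788 in either direction (34.4%). The size of the response differed in 440 of the 1860 (406), where 12.5% of all genes did (11.1%). The 1860 genes were picked on the same NS and NB9464 TCM libraries that enter this difference. The shares of all genes are therefore not a like comparison. The median over interferon-stimulated genes was -1.28 with R788 (-1.33 without replicate 8), over mitosis genes -1.79 (-1.72) and over inflammatory effectors 3.39 (3.28). Of the 24 lists with at least 10 tested genes, the median had the opposite sign with R788 in 3. It went from 0.42 to -0.10 over amino acid shortage and ATF4 targets (-0.016 without replicate 8), from -0.065 to 0.21 over macrophage identity genes (0.24) and from 0.13 to -0.060 over proteases and matrix genes (-0.0070). Without R788 the last 2 of these medians lay near 0. With 1 library left out, macrophage identity was at 0.0036 without NS replicate 1. Proteases and matrix genes were at 0.015 without NS replicate 2. Edn1 was among the genes whose response differed. With R788 it had 23.6 and 22.4 in the absence of NB9464 TCM and 100.5 and 121 in its presence (adjusted p of the difference in response = 3.15e-08, and 3.89e-08 without replicate 8). Nos2 had 12.7 and 25.5 in its absence and 1044 and 1153 in its presence. Its response without R788 minus its response with it was -1.16 on the log2 scale (adjusted p = 0.00284, and -1.78 and 0.00113 without replicate 8). The response of Syk did not pass the test of a difference (-0.06, adjusted p = 0.658, and 0.827 without replicate 8).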

How the data were processed

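The authors deposited raw counts per gene for 12 libraries in 6 groups of 2. Their processing notes name STAR 2.6.1d, Salmon 1.4.0, SAMtools 1.9, Picard 2.26 and mm10. By the methods of the study and the name of the deposited counts, Salmon quantified the reads. The gene lengths beside the counts equaled merged exon lengths of GENCODE M21 for 97.3% of annotated genes. Settings of the quantification were not given. Of the counts from 1 to 40 in the 4 libraries compared, 65.5% to 67.3% were even. Whether both mates of a pair were counted was not tested. Strand use in counting was not stated, so reads of Edn1, Il1a, Il1b, Lama3, Ctsb, Ctsl, Spp1, Cxcl10, Pdgfa, Tlr3, Lcp2, Irak3, Il4ra, Thbs1, Idi1, Ndrg1, Tk1, Plk1, Nusap1, Itgam, Cx3cr1, Gata3, Mpo, Csf1r, Hif1a, Nfkb2 and Irf7 cannot be told apart from those of overlapping genes in GENCODE M21. Reads of Saa3, Fth1, Prdx1, Lyz2, Apol9b and Ifit3 may be shared with near-identical copies. The methods of the study speak of triplicates and single reads, and the labels of 2 libraries per group and paired reads.

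All 12 libraries entered 1 DESeq2 1.42.0 model with group as the only term (R 4.3.3, Wald test, Benjamini-Hochberg adjusted p under 0.05). The direct contrast of both media and the difference of the responses with and without R788 came from the same model. The 316 genes without an adjusted p stayed out of the calls. Folds from or to 0 were bounded with 3 counts per library. The step recovered 94 of 100 simulated 2-fold changes of this comparison and all 100 4-fold changes, over 15013 genes. The simulation gave all genes the same spread and changed few genes, only ones with a mean of at least 50 counts. Power for genes with fewer counts was therefore not measured. Alternatives were edgeR 4.0.16, TMM scaling, other count filters, a fold minimum, a fit of the 4 libraries, halved counts, apeglm 1.24.0 shrinkage and each library left out.

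The 28 gene lists (532 genes) and the comparison were chosen with earlier results of these data known. Genes named were Syk, the 8 largest rises and falls at a mean of at least 100 normalized counts, the 5 largest gains and losses in count, up to 3 called members in each direction per list at a mean of at least 20, and fixed members that define a list. Some genes that this rule names are not reported here. The exceptions to a list (Cd40, Cd86, Rela, Gbp5) were named after their values were seen. Promoter windows were those of RefSeq (GRCm38.p6), matched by symbol.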

Additional observations from a re-analysis of the deposited data

Results flagged for a closer look

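For 26 of 46 genes named by the size of their change or as defining members, the response to NB9464 TCM differed from that to NBT3L TCM in the direct DESeq2 contrast (Benjamini-Hochberg adjusted p under 0.05), against 9.4% of all genes. Of the other 100 named genes 38 differed. Genes named by their change were picked on the same NB9464 TCM libraries and mostly above a count minimum. The 9.4% is therefore not a like comparison. Values given are differences on the log2 scale, NB9464 TCM minus NBT3L TCM. The inflammatory signals Il6 (-1.24), Il1a (-1.35), Csf3 (-0.58) and Tnf (-0.20) were lower in NB9464 TCM, as were U90926 (-2.22), the macrophage receptors Marco (-0.18), Mrc1 (-0.78), Csf1r (-0.17) and Adgre1 (-0.39), and H2-Ab1 (-0.43) of the antigen presentation list. Metabolic and housekeeping genes lower in NB9464 TCM were Arg1 (-0.92), Hif1a (-0.55), Prdx1 (-0.56), Fth1 (-0.29), Gpnmb (-0.25), Ctsb (-0.25) and Vim (-0.31). Nptx1 (-3.12), Ctnnd2 (-1.59) and Ccr3 (-1.71), which fell against NS in NB9464 TCM, were lower than in NBT3L TCM too. The genes higher in NB9464 TCM were Asns (2.13), Spp1 (0.89), Vegfa (0.76), Atf4 (0.67) and Il10 (0.62).

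Vegfa had 1067 and 1017 in NBT3L TCM, below both NS libraries, and Il10 had 509.9 and 441 in NBT3L TCM, beside 672 and 786 in NB9464 TCM.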

How the results depend on the processing

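The count of called genes stayed within 1.5 times of 5552 under every alternative but 1: it was 5249 in edgeR, 5524 with TMM scaling, 5545 with no count filter, 5520 at a mean of at least 50 counts, 5383 with only the 4 libraries, 5300 with counts divided by 2, and 4199 to 4624 with 1 library left out. With a 2-fold minimum it was 1860 (973 higher and 887 lower), the genes that differed between the media were 181 of 1531 and those called with R788 2274 of 6576. Without R788 replicate 8, chosen after seeing the data, 5955 and 5606 genes were called without and with R788. Of the named genes, 4 lost their call in edgeR, 3 with only the 4 libraries, 1 with halved counts and 7 to 11 with 1 library left out, and none changed direction. TMM scaling moved no list median by more than the spread between replicates, a mean of at least 50 counts moved 5 of 26, and leaving out 1 library moved 2 to 9 of 27. The macrophage identity median (-0.06) ran from -0.10 to 0.0036 with 1 library left out, and the cause was not tested. No paired analysis was possible because the groups share no replicate numbers. With 2 libraries a group, changes of genes with few counts are imprecise, and groups at 0 give only lower bounds.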

Other observations

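Other genes of the lists that passed the test were spread over lysosome, lipid and granulocyte functions. The proton pump subunits Atp6v0d2 and Atp6v0a1 changed by -1.35 ± 0.26 and -0.63 ± 0.06, whereas the lysosomal proteases Ctsz and Ctsk rose by 0.89 ± 0.06 and 0.45 ± 0.12. Lipa, the lysosomal acid lipase, had 58867 and 58080.0 in NS and 27470.1 and 25437 in NB9464 TCM (-1.14 ± 0.05), and Hmgcs1, an early enzyme of sterol synthesis, had 4262 and 4237 in NS and 2557 and 2609 in NB9464 TCM (-0.72 ± 0.08). Mvd was the sterol gene that rose (0.48 ± 0.11). Cebpb, a transcription factor of the acute-phase response, had 9737 and 10167 in NS and 19537 and 22949.7 in NB9464 TCM (1.09 ± 0.07), and Dusp4, a MAP kinase phosphatase, changed by -0.29 ± 0.08. All adjusted p-values are from DESeq2.

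The following members passed the DESeq2 test with all libraries but not under every alternative. The chemokines Cx3cl1 and Cxcl14 changed by -1.67 ± 0.57 and -1.21 ± 0.38, the lipid carrier Fabp4 by 0.70 ± 0.21, Pck2 of the ATF4 list by -0.33 ± 0.10 and the metallothionein Mt2 by 1.63 ± 0.57. Among genes of other cell types, the collagen Col3a1 changed by 0.82 ± 0.28, and the neutrophil genes Elane and Retnlg had 69.5 and 44.6 in NS and 0 and 5.57 in NB9464 TCM and 47.9 and 72.1 in NS and 3.83 and 0 in NB9464 TCM.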
